A study of Mus musculus with 4 samples.

Results

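The genes described here are 42 genes of NF-kB signalling and inflammation in macrophages, taken as a list of symbols: the cytokines and chemokines that macrophages secrete, their effector enzymes, the NF-kB subunits, the inhibitors and feedback regulators of the pathway, receptors and surface proteins, signal adaptors and kinases, and the immediate-early transcription factors. All 42 were present in the table, among 21805 protein-coding genes, and were represented by 176 transcripts whose counts were summed per gene. The data are small-RNA libraries, so a count is a short fragment assigned to a transcript of the gene and not a measure of the intact mRNA. In 32 of the 42 genes a pair of libraries that was compared held at least 50 counts. The other 10 genes (Il1b, Il6, Il1rn, Il10, Ccl2, Ccl5, Ccl7, Nos2, Irak3 and Acod1) did not reach that number in any pair.

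NF-kB is a family of dimeric transcription factors that inhibitor proteins such as IkBα hold in the cytoplasm of resting macrophages. Bacterial products that engage Toll-like receptors and CD14 signal through the adaptor MyD88, IRAK kinases and the ubiquitin ligase TRAF6 to the IkB kinase, and the released dimers then switch on cytokine, chemokine and feedback genes. Many of the mRNAs made in this response carry AU-rich elements in the 3′ UTR, to which proteins such as tristetraprolin (the product of Zfp36) bind and target the mRNA for decay.

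All 4 libraries came from RAW264.7, a mouse macrophage-like line transformed by Abelson murine leukaemia virus, with the genotype label shDis3l2 or shNS, and all received doxycycline at 1 µg per mL. The groups were extracellular vesicles of shDis3l2 cells, vesicles of shNS cells, whole shDis3l2 cells and whole shNS cells, with 1 library each; shNS is a non-silencing short hairpin RNA and shDis3l2 one labelled as a Dis3l2 knockdown. Dis3l2 encodes an exonuclease that degrades uridylated RNA. Vesicles were collected for 24 h after 3 days of doxycycline, purified by density and treated with micrococcal nuclease, per the labels' protocols; the cells were collected when the medium was harvested. No group had a replicate, the labels do not say whether a line was a clone, and every interval below covers counting error between 2 libraries and nothing else.

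The libraries held 17612856 (shDis3l2 vesicles), 18190135 (shNS vesicles), 18416554 (shDis3l2 cells) and 19741041 counts (shNS cells). Protein-coding transcripts took 16.9% and 12.9% of the counts in the shDis3l2 and shNS vesicles, against 4.31% and 3.35% in the shDis3l2 and shNS cells. Because of this difference each ratio was formed per 1000000 of all counts (CPM) and again per 1000000 protein-coding transcript counts. On both scales a gene's count was its sum over every transcript type, so counts on transcripts not typed protein-coding enter the second ratio but not its total. Of 18 macrophage markers 17 or 18 had a count in each library, with a sum of 314 and 399 CPM in the shDis3l2 and shNS vesicles and 54.8 and 51.8 CPM in the shDis3l2 and shNS cells. Lists of markers of 7 other cell classes each summed to less than 10 CPM in every library, the highest being 9.82 CPM for erythroid markers in shDis3l2 vesicles (3.79 in shNS vesicles, 0.434 in shDis3l2 cells and 0.557 in shNS cells), nearly all of it Hbb-bs; its part in the results was not tested. Fragments assigned to Dis3l2 were not lower under the shDis3l2 label. They had 108 CPM in the shDis3l2 vesicles and 94.2 in the shNS vesicles, and 718 CPM in the shDis3l2 cells, against 2.08 CPM in the shNS cells. Such fragments do not measure the intact mRNA, and whether they come from the mRNA or from the hairpin was not tested. The names shDis3l2 and shNS below therefore stand for the libraries so labelled and not for a measured loss of Dis3l2.

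Sequence features that were not used to choose the genes were compared with those of all genes. In the 3′ UTR of each gene's most abundant coding transcript (GENCODE M21), the 34 genes with at least 50 counts over the 4 libraries held a median of 2.73 ATTTA pentamers per kb, and 55.9% of them held 3 or more. The corresponding values over 11237 protein-coding genes at the same minimum were 1.39 per kb and 40.1%. The nonamer TTATTTATT was present in 8 of the 34 genes (23.5%) and in 8.63% of the 11237; over all 42 genes the median was 2.9 pentamers per kb and 9 held the nonamer. The 3′ UTRs of Nfkb1, Rela, Relb, Tlr2, Il1rn and Ccl5 held no pentamer. The 30-base stretch with the most pentamers is shown 5′ to 3′, with pentamers in capitals, for the genes that stand out in the comparisons below. Nfkbiz, Socs3 and Traf6 had higher fragment levels under the shDis3l2 label in at least 1 compartment, Fos, Tnfaip2 and Clec4e had lower levels in cells, and Tnf and Zfp36 are the classic target and the binding protein.
Nfkbiz: atgaatcacctcttagATTTAtgtaATTTA
Socs3: actcagactttgcacatatATTTAtATTTA
Traf6: gcaagcagtagctgtgtctatATTTATTTA
Fos: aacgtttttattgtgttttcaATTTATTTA
Tnfaip2: tccctaggatcaggggtgaagcctcATTTA
Clec4e: taATTTAtcttaacataaatttcctATTTA
Tnf: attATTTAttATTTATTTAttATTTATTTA
Zfp36: tgggccctttATTTAtgacgactttATTTA

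The Tnf stretch lies at bases 437 to 466 of the 3′ UTR and holds 5 overlapping or adjacent pentamers. The Fos stretch (bases 632 to 661) holds 2, as do those of Nfkbiz, Socs3, Traf6, Clec4e and Zfp36, and the Tnfaip2 stretch holds 1. Spearman's rho between pentamer density and log2 ratio was -0.0503 over 31 genes for the label in vesicles, -0.135 over 24 genes for the label in cells, -0.0677 over 28 genes for vesicles over cells under shDis3l2 and -0.283 over 30 genes under shNS. These are descriptions across genes of the same libraries.

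Promoters, as 250 bases before to 50 bases after the RefSeq start on GRCm38.p6, were available for 29 of the 42 genes, with 36 starts among them. The kB motif GGG, any 5 bases and CC, searched on both strands so that GG, any 5 bases and CCC counts too, with overlapping matches counted separately and a start that matches both forms counted once, was found in 31 of these 36 windows (86.1%), against 50.8% of 32851 windows of all genes. A match is a description of these letters and not a binding site. Windows are shown 5′ to 3′ on the strand of the gene, with matches in capitals, for Nfkb2 (1 of its 3 starts, chr19:46304487-46304786, plus strand, 7 matches) and Tlr2 (chr3:83841559-83841858, minus strand, 5 matches), which were more abundant in vesicles on both scales, and for Socs3 (chr11:117969317-117969616, minus strand, 1 match) and Fos (chr12:85473640-85473939, plus strand, 1 match), whose label ratios in cells ran in opposite directions.
Nfkb2: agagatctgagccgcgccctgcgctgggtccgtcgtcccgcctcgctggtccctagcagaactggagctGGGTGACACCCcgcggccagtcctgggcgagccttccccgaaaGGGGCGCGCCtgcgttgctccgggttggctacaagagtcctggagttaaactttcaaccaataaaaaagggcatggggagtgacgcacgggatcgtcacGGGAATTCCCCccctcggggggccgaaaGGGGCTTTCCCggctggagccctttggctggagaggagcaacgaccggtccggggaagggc
Tlr2: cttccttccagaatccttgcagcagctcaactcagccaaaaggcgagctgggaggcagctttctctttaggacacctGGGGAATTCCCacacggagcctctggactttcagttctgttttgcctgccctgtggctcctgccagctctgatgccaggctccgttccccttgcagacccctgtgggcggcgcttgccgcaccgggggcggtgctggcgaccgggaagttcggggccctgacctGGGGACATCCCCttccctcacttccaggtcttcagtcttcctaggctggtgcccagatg
Socs3: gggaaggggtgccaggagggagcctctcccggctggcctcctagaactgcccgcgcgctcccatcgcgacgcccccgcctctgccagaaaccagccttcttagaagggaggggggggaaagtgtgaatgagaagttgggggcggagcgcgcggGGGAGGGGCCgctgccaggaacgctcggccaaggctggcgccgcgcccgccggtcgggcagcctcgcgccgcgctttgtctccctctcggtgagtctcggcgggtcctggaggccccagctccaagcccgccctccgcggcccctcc
Fos: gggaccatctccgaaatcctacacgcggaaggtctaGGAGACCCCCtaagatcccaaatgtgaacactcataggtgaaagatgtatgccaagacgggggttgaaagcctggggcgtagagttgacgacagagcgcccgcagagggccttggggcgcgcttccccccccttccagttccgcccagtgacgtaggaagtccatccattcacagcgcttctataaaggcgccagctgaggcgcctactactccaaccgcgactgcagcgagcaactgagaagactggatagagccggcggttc

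Together the 42 genes had 591 CPM in the shDis3l2 vesicles and 373 CPM in the shNS vesicles, and 91.1 CPM in the shDis3l2 cells and 102 CPM in the shNS cells. Counting only their protein-coding transcripts, they made up 2301 and 2332 per 1000000 protein-coding transcript counts in the shDis3l2 and shNS vesicles, and 1669 and 2354 in the shDis3l2 and shNS cells. In bulk libraries, fewer vesicles or cells that carry a transcript and less RNA in each cannot be told apart. Cd14 alone held 3485 of 10407 counts of the 42 genes in the shDis3l2 vesicles. Without Cd14, a sum formed after seeing the data, the shDis3l2 vesicles were 1.25-fold higher than the shNS vesicles on the scale of all counts, against 1.58-fold with it. Per protein-coding count the log2 ratio of the sums over every transcript type was -0.07 without Cd14 and 0.27 with it.

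**Figure D1:**
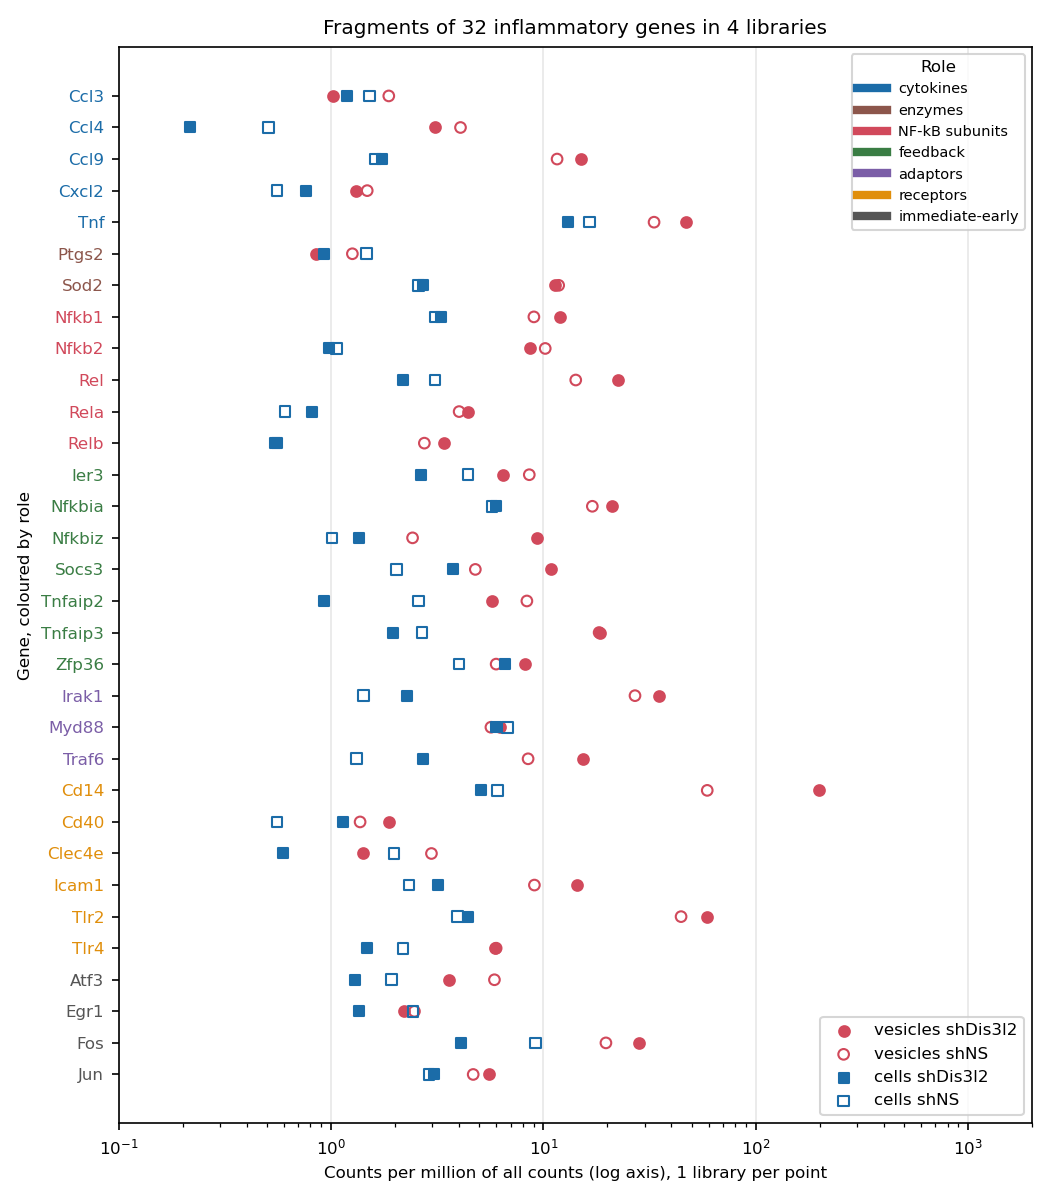
Level of each of the 32 genes that reached 50 counts in a pair, in CPM on a log axis, with 1 point per library and gene names coloured by role. Vesicle points lie to the right of cell points for most genes, with Cd14 at 198 CPM in shDis3l2 vesicles the farthest right, whereas the 4 points of Myd88 lie between 5.66 and 6.79 CPM.

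Set against the length of the most abundant transcript, the order of levels differed between compartments. In shDis3l2 vesicles Cd14 came first with 228 CPM per kb, followed by Tnf with 28.5, Tlr2 with 19.6, and Fos and Nfkbia with 13.4 CPM per kb each. In shDis3l2 cells Tnf came first with 8.02 CPM per kb, followed by Cd14 with 5.88, Nfkbia with 3.79 and Zfp36 with 2.69 CPM per kb. In shNS cells the order was Tnf with 10, Cd14 with 7, Fos with 4.35 and Ier3 with 3.90 CPM per kb. The value of Cd14 rests on a transcript of 868 nt that is described below, and the spread between replicates of any of these levels is not known.

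The label comparison asks which fragments differ between the libraries labelled shDis3l2 and shNS within vesicles and within cells. In vesicles, 3 of 31 genes were at least 2-fold higher under shDis3l2 with an interval that excluded equality (Nfkbiz, Cd14 and Socs3), where 9.03% of 9696 protein-coding genes were, and 1 gene was 2-fold lower (Clec4e), where 1.7% were. In cells, 1 of 24 genes was 2-fold higher (Traf6), where 9.59% of 5319 genes were, and 3 were 2-fold lower (Clec4e, Tnfaip2 and Fos), where 5.19% were. Per protein-coding count, 2 genes were higher and 3 lower in vesicles, with 4.66% and 4.78% of all genes, and 0 were higher and 5 lower in cells, with 4.87% and 12.7%. Nfkbiz and Cd14 (higher in vesicles), Clec4e (lower in both compartments) and Fos and Tnfaip2 (lower in cells) kept their call on both scales. These calls are of sums over every transcript type. In cells the lower sums of Clec4e and Tnfaip2 lay on transcripts not typed protein-coding. The call of Traf6 in cells rested on such transcripts as well, since the coding Traf6-201 alone had a log2 ratio of 0.39. Most Cd14 counts in vesicles were on such a transcript too, as described below. The median log2 ratio over the measured genes was 0.31 in vesicles, where that of all genes was 0.30, and -0.22 in cells, where that of all genes was 0.07. The median in cells depended on the count minimum: at 20 counts it was 0.02 over 32 genes, beside 0.09 for all genes.

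**Figure D2:**
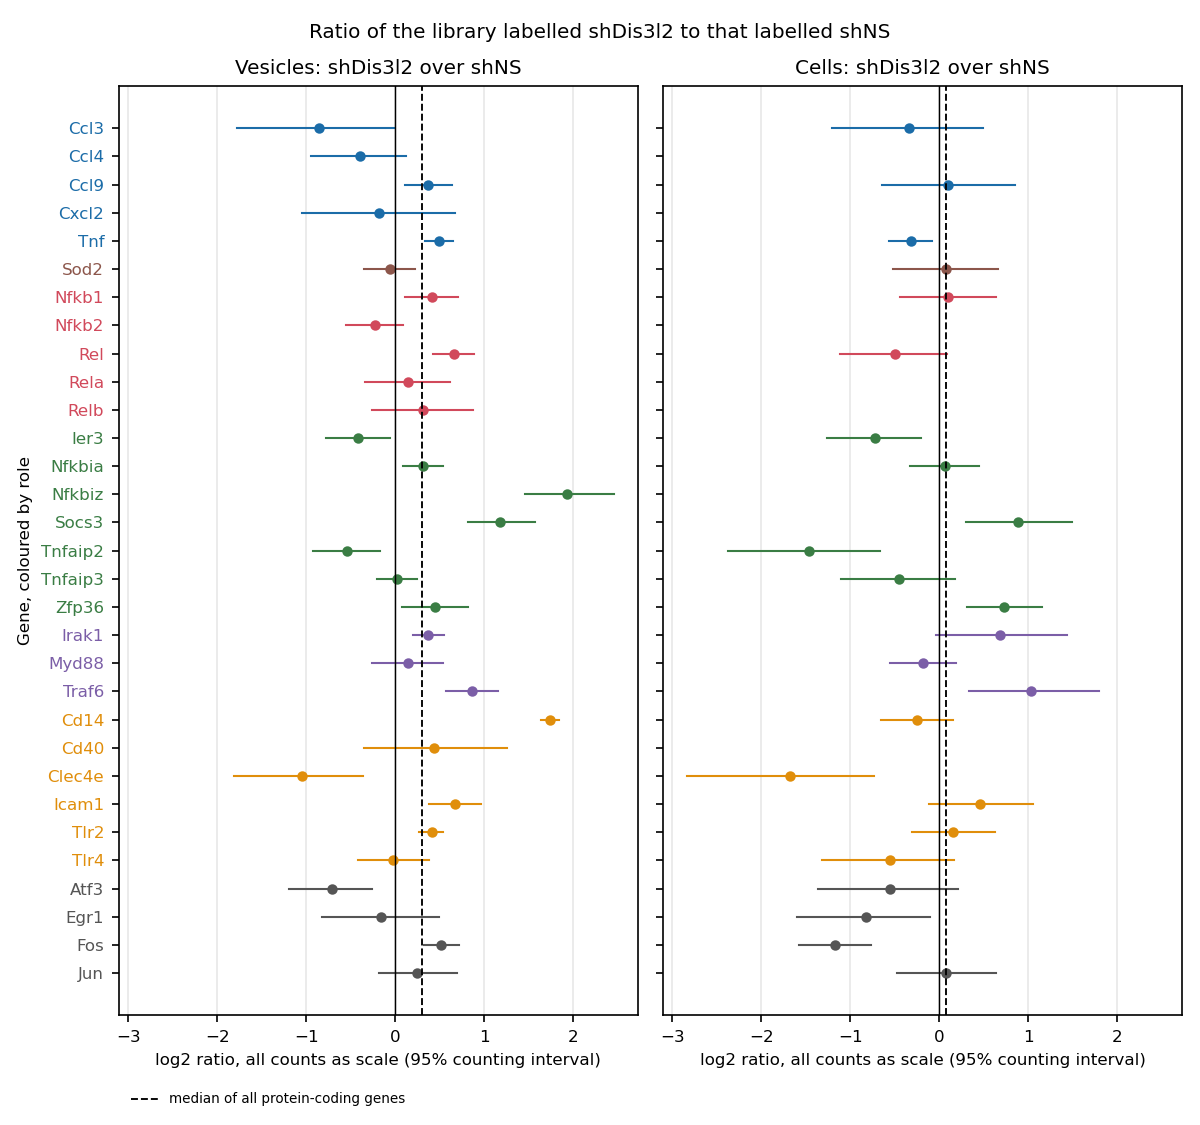
Log2 ratio of the library labelled shDis3l2 to that labelled shNS in vesicles (left) and cells (right), on the scale of all counts, with 95% counting intervals; the dashed line is the median of all protein-coding genes (0.30 in vesicles, 0.07 in cells). Nfkbiz (1.93) and Cd14 (1.74) lie farthest to the right in vesicles, and Clec4e lies farthest to the left in both panels (-1.05 in vesicles, -1.68 in cells).

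Among secreted cytokines, Tnf, the founding member of its family and a main product of activated macrophages, was the most abundant. It had 46.8 CPM in shDis3l2 vesicles and 33.2 CPM in shNS vesicles, and 13.1 CPM in shDis3l2 cells and 16.5 CPM in shNS cells. The shDis3l2 library was thus the higher of the pair in vesicles, with a log2 ratio of 0.49 (95% interval 0.34 to 0.65), and the lower of the pair in cells, with a log2 ratio of -0.32 (-0.57 to -0.08). Per protein-coding count the vesicle ratio was 0.10 and the cell ratio -0.69.

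Ccl9, a chemokine made constitutively by macrophages, had 15.0 CPM in shDis3l2 and 11.6 CPM in shNS vesicles, and 1.74 CPM in shDis3l2 and 1.62 CPM in shNS cells. Both vesicle libraries were above both cell libraries, and its label ratios were 0.37 in vesicles and 0.10 in cells. Ccl4, a chemokine that attracts leukocytes, had 54 and 74 counts in shDis3l2 and shNS vesicles but 4 and 10 counts in shDis3l2 and shNS cells. Ccl3, its close relative, had 18 and 34 counts in shDis3l2 and shNS vesicles and 22 and 30 counts in shDis3l2 and shNS cells, so that it showed no such gap between compartments. Its label ratio in vesicles was -0.85, with an interval of -1.78 to -0.01. Cxcl2, which attracts neutrophils, had 11 to 27 counts in every library. The other 7 cytokines stayed at or below 23 counts: the highest was Il1rn, the interleukin-1 receptor antagonist, with 14 and 18 counts in shDis3l2 and shNS vesicles and 23 and 17 counts in shDis3l2 and shNS cells. Il6 was at 0 in shDis3l2 vesicles, which allows up to 0.17 CPM, with 1 count in shNS vesicles, and had 5 and 9 counts in shDis3l2 and shNS cells.

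Of the effector enzymes, Sod2, the mitochondrial superoxide dismutase that NF-kB induces, had 11.3 CPM in shDis3l2 and 11.8 CPM in shNS vesicles, and 2.71 CPM in shDis3l2 and 2.58 CPM in shNS cells. On the scale of all counts the label ratio of the gene sum had an interval that included 0 in both compartments (log2 ratio -0.06 in vesicles and 0.07 in cells). Per protein-coding count it was -0.46 in vesicles (-0.74 to -0.17) and -0.29 in cells (-0.88 to 0.30). In cells the coding Sod2-201 alone had a ratio of 1.28 (0.43 to 2.25) on the scale of all counts. The retained-intron Sod2-206 was assigned 9.71 counts in shDis3l2 and 30 in shNS cells. Ptgs2, the inducible cyclooxygenase, had 15 and 23 counts in shDis3l2 and shNS vesicles and 17 and 29 counts in shDis3l2 and shNS cells. Its compartments could be compared under shNS alone. The log2 ratio of vesicles over cells was -0.21 (-1.07 to 0.62) on the scale of all counts and -2.15 (-3.01 to -1.32) per protein-coding count. Nos2, the inducible nitric oxide synthase, and Acod1, which makes itaconate, stayed at 2 to 17 counts per library.

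The 5 NF-kB subunits were all detected. Rel, which encodes c-Rel, had 22.5 CPM in shDis3l2 and 14.2 CPM in shNS vesicles, and 2.17 CPM in shDis3l2 and 3.09 CPM in shNS cells. Its label ratio was 0.66 in vesicles (0.43 to 0.89) and -0.50 in cells, where the interval ran from -1.12 to 0.09 and included 0. Nfkb1, the gene of p105 and p50, had 12.0 and 9.02 CPM in shDis3l2 and shNS vesicles and 3.31 and 3.09 CPM in shDis3l2 and shNS cells. As a gene sum it lay below the median vesicle-to-cell ratio of all genes under both labels, unlike the other 4 subunits. Counted on coding transcripts alone, Nfkb1 lay above that median under shDis3l2 but not under shNS. Its only coding transcript with counts in cells, Nfkb1-201, was assigned 15 in shDis3l2 and 28.5 in shNS cells. Nfkb2, the gene of p100 and p52, had 8.69 CPM in shDis3l2 and 10.2 CPM in shNS vesicles, against 0.977 CPM in shDis3l2 and 1.06 CPM in shNS cells. Rela, the gene of the p65 subunit that activates transcription in the canonical pathway, had 78 and 73 counts in shDis3l2 and shNS vesicles and 15 and 12 counts in shDis3l2 and shNS cells. Relb, which pairs with p52 in the non-canonical pathway, was close to it with 60 and 50 counts in shDis3l2 and shNS vesicles and 10 and 11 counts in shDis3l2 and shNS cells. As a gene sum, no subunit differed 2-fold between labels in a compartment where it could be compared. For Nfkb1 this sum joins transcripts that differed between the vesicle libraries. The coding Nfkb1-206 and Nfkb1-203 were assigned 120 and 17.6 counts in shDis3l2, and 0 and 44.7 in shNS vesicles. Nfkb1-209, not typed protein-coding, was assigned 0 in shDis3l2 and 58.7 in shNS vesicles.

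The inhibitors and feedback regulators ran in both directions. Nfkbiz, which encodes the nuclear IkBζ that co-activates secondary response genes, had 9.31 CPM in shDis3l2 vesicles and 2.42 CPM in shNS vesicles, and 1.36 CPM in shDis3l2 cells and 1.01 CPM in shNS cells. The shDis3l2 vesicle library stood above the 3 others, and the vesicle ratio was 3.82-fold (log2 1.93, 1.46 to 2.46). It ranked 192 of 9696 protein-coding genes from the highest. Socs3, which inhibits JAK-STAT signalling from cytokine receptors, had 10.9 CPM in shDis3l2 and 4.78 CPM in shNS vesicles, and 3.75 CPM in shDis3l2 and 2.03 CPM in shNS cells. The shDis3l2 library was the higher in both compartments, with a log2 ratio of 1.18 in vesicles (0.82 to 1.57) and 0.88 in cells (0.30 to 1.49), and the ratios were 0.79 and 0.52 per protein-coding count. Zfp36, which encodes the AU-rich element binding protein tristetraprolin, had 8.18 CPM in shDis3l2 and 5.99 CPM in shNS vesicles, and 6.62 CPM in shDis3l2 and 4.00 CPM in shNS cells. Its ratio in cells was 0.72 (0.31 to 1.15), and on the scale of all counts its levels in vesicles and cells lay close together. Per protein-coding count Zfp36 was 3.18-fold lower in vesicles than in cells under shDis3l2 and 2.57-fold lower under shNS. These are ratios of the gene sum, and its coding transcripts differed on the scale of all counts. Under shDis3l2 and shNS the log2 ratio of vesicles over cells was 2.58 and 2.32 for Zfp36-201. For Zfp36-202 it was -0.52 and -0.24, the second with an interval that included 0.

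Tnfaip2, a TNF-induced gene that takes part in membrane protrusions, had 5.73 CPM in shDis3l2 and 8.36 CPM in shNS vesicles, and 0.923 CPM in shDis3l2 and 2.58 CPM in shNS cells. It was the lower library under shDis3l2 in both compartments, by 2.75-fold in cells (log2 -1.46, -2.37 to -0.67) and 1.45-fold in vesicles (log2 -0.54, -0.92 to -0.17). Ier3, an early response gene that modulates survival, had 6.42 CPM in shDis3l2 and 8.58 CPM in shNS vesicles, and 2.66 CPM in shDis3l2 and 4.41 CPM in shNS cells, with the same direction and ratios of -0.42 and -0.72. As gene sums, the main brakes on the pathway differed by less than 2-fold between labels. Nfkbia, which encodes IkBα, had 21.1 CPM in shDis3l2 and 17 CPM in shNS vesicles, and 5.97 CPM in shDis3l2 and 5.72 CPM in shNS cells. Tnfaip3, which encodes the ubiquitin-editing enzyme A20, had 18.5 CPM in shDis3l2 and 18.3 CPM in shNS vesicles, and 1.95 CPM in shDis3l2 and 2.68 CPM in shNS cells. On the scale of all counts both had vesicle libraries above cell libraries, and their label ratio in cells had an interval that included 0. Per protein-coding count the vesicle-to-cell ratio under shDis3l2 and shNS was -0.16 and -0.38 for Nfkbia, and 1.25 and 0.81 for Tnfaip3. The label ratio in cells was then -0.30 (-0.69 to 0.09) for Nfkbia and -0.81 (-1.47 to -0.18) for Tnfaip3. Counted on coding transcripts alone, Tnfaip3 was called lower in shDis3l2 cells. There the coding Tnfaip3-201 and Tnfaip3-202 were assigned 22.3 and 0 counts, against 42 and 5.17 in shNS cells. The retained-intron Tnfaip3-205 was assigned 13.4 in shDis3l2 and 4.76 in shNS cells. Irak3, which encodes the inhibitory kinase homologue IRAK-M, had 5 to 27 counts per library.

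Of the receptors and surface proteins, Cd14, the co-receptor that hands lipopolysaccharide to TLR4, had 198 CPM in shDis3l2 vesicles and 59.1 CPM in shNS vesicles, and 5.10 CPM in shDis3l2 cells and 6.08 CPM in shNS cells. The vesicle ratio of 3.35-fold (log2 1.74, 1.64 to 1.84) had no counterpart in cells, where the log2 ratio was -0.25 (-0.66 to 0.15). Of the Cd14 counts over the 4 libraries 78% were on a transcript typed as a retained intron, and the coding transcript alone was 1.28-fold higher in shDis3l2 vesicles. Tlr2, the receptor for bacterial lipoproteins, had 58.9 CPM in shDis3l2 and 44.5 CPM in shNS vesicles, and 4.40 CPM in shDis3l2 and 3.95 CPM in shNS cells. Its labels lay close together in both compartments (log2 ratio 0.41 in vesicles and 0.15 in cells). Tlr4, the receptor for lipopolysaccharide, had 5.90 CPM in shDis3l2 and 5.99 CPM in shNS vesicles, and 1.47 CPM in shDis3l2 and 2.18 CPM in shNS cells. Icam1, the adhesion molecule that binds leukocyte integrins, had 14.4 CPM in shDis3l2 and 9.07 CPM in shNS vesicles, and 3.20 CPM in shDis3l2 and 2.33 CPM in shNS cells, with a vesicle ratio of 0.67 (0.38 to 0.96). Clec4e, which encodes the receptor Mincle for mycobacterial glycolipids, had 25 and 54 counts in shDis3l2 and shNS vesicles and 11 and 39 counts in shDis3l2 and shNS cells. It was the lower library under shDis3l2 in both compartments, 2.07-fold in vesicles (log2 -1.05, -1.81 to -0.36) and 3.20-fold in cells (log2 -1.68, -2.84 to -0.73). Cd40, a co-stimulatory receptor, had 33 and 25 counts in shDis3l2 and shNS vesicles and 21 and 11 counts in shDis3l2 and shNS cells.

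The 3 signal adaptors and kinases showed 3 different patterns. Traf6, the ubiquitin ligase downstream of the IRAK kinases, had 15.4 CPM in shDis3l2 and 8.47 CPM in shNS vesicles, and 2.71 CPM in shDis3l2 and 1.32 CPM in shNS cells. Its shDis3l2 library was the higher in both compartments, with a log2 ratio of 0.86 in vesicles (0.57 to 1.16) and 1.03 in cells (0.33 to 1.79). Per protein-coding count these were 0.47 (0.18 to 0.76) and 0.67 (-0.03 to 1.43). In cells the coding Traf6-201 was assigned 31.5 counts in shDis3l2 and 26.3 in shNS. Its log2 ratio there was 0.39 on the scale of all counts, with an interval that included 0. Traf6-202 and Traf6-203, not typed protein-coding, were assigned 8.47 and 10.4 counts in shDis3l2 cells and 0 in shNS cells. In vesicles Traf6-201 had a ratio of 0.92, with an interval above 0. Irak1, the kinase recruited by MyD88, had 35.0 CPM in shDis3l2 and 27.0 CPM in shNS vesicles, and 2.28 CPM in shDis3l2 and 1.42 CPM in shNS cells. Vesicles stood far above cells, and the label ratios were 0.37 in vesicles and 0.68 in cells, the second with an interval of -0.04 to 1.43. Myd88, the adaptor of most Toll-like receptors, had 6.25 CPM in shDis3l2 and 5.66 CPM in shNS vesicles, and 5.97 CPM in shDis3l2 and 6.79 CPM in shNS cells, the narrowest range among these 3 genes.

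Among the immediate-early transcription factors Fos, which pairs with Jun in AP-1, had 28.3 CPM in shDis3l2 and 19.7 CPM in shNS vesicles, and 4.07 CPM in shDis3l2 and 9.17 CPM in shNS cells. The shDis3l2 library was 2.24-fold lower in cells (log2 -1.17, -1.58 to -0.77) and 1.43-fold higher in vesicles (log2 0.52, 0.32 to 0.72). Jun had 5.56 CPM in shDis3l2 and 4.67 CPM in shNS vesicles, and 3.04 CPM in shDis3l2 and 2.89 CPM in shNS cells, and its ratios of 0.25 and 0.07 had intervals that included 0. Egr1, a zinc-finger factor of the early growth response, had 2.21 CPM in shDis3l2 and 2.47 CPM in shNS vesicles, and 1.36 CPM in shDis3l2 and 2.43 CPM in shNS cells. Its ratio in cells was -0.83 (-1.60 to -0.11). Atf3, a stress-induced repressor of cytokine genes, had 3.58 CPM in shDis3l2 and 5.88 CPM in shNS vesicles, and 1.30 CPM in shDis3l2 and 1.92 CPM in shNS cells, with ratios of -0.71 (-1.19 to -0.26) in vesicles and -0.55 in cells. In cells, 3 of these 4 genes had a ratio below 0, and the summed level of the 4 was 9.77 CPM in shDis3l2 against 16.4 CPM in shNS cells. Much of that gap was Fos, which held 75 of 180 counts in shDis3l2 and 181 of 324 in shNS cells. Without Fos, a sum formed after seeing the data, there were 105 counts in shDis3l2 and 143 in shNS cells, and the interval of the log2 ratio ran from -0.72 to 0.03.

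Label ratios of 24 genes could be set side by side in vesicles and cells, and 17 of them (70.8%) had the same sign in both, as had 54.8% of 4781 protein-coding genes. The sign depends on the scale, and the medians of all genes were above 0 in both compartments on this one (0.30 and 0.07). The ratio in vesicles minus that in cells had a counting interval above 0 in 5 of the 24 (20.8%), where 26.1% of the 4781 genes did, and below 0 in 0 of the 24, where 14.6% did. The 5 were Cd14 (1.99, 1.59 to 2.39), Fos (1.69, 1.25 to 2.12), Rel (1.16, 0.55 to 1.78), Tnfaip2 (0.92, 0.05 to 1.78) and Tnf (0.82, 0.54 to 1.10). In 2 genes, Fos and Tnf, the labels ran in opposite directions with intervals that excluded 0 in both compartments, as in 7.93% of all genes. On the scale of protein-coding counts this was not so for either gene, and it was so for Cd14 and Rel instead.

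The compartment comparison asks which fragments are found in vesicles relative to the cells that released them. Under shDis3l2, 23 of 28 genes were at least 2-fold higher in vesicles on the scale of all counts, where 80% of 8974 protein-coding genes were; under shNS, 22 of 30 genes were, where 76.8% of 8720 genes were. None was 2-fold lower, where 5.83% and 6.34% of all genes were. Per protein-coding count the picture was split: under shDis3l2 8 genes were higher and 5 lower in vesicles, with 27.1% and 19.6% of all genes, and under shNS 5 were higher and 7 lower, with 22.5% and 22.4%. The genes lower on that scale were Myd88, Zfp36, Jun and Egr1 under both labels, Cd40 under shDis3l2, and Ccl3, Ptgs2 and Clec4e under shNS. Of the genes called higher on the scale of all counts, 6 under shDis3l2 (Ier3, Nfkbia, Tnf, Atf3, Nfkb1 and Socs3) and 9 under shNS (Nfkbia, Fos, Tnfaip2, Tnf, Atf3, Nfkb1, Nfkbiz, Tlr4 and Socs3) had a ratio below 0 per protein-coding count. The median log2 ratio of the measured genes was 2.28 under shDis3l2 and 1.58 under shNS, where all genes had 2.23 and 2.03. Both comparisons use all 4 libraries of the label comparisons, so the sets of ratios are not independent.

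**Figure D3:**
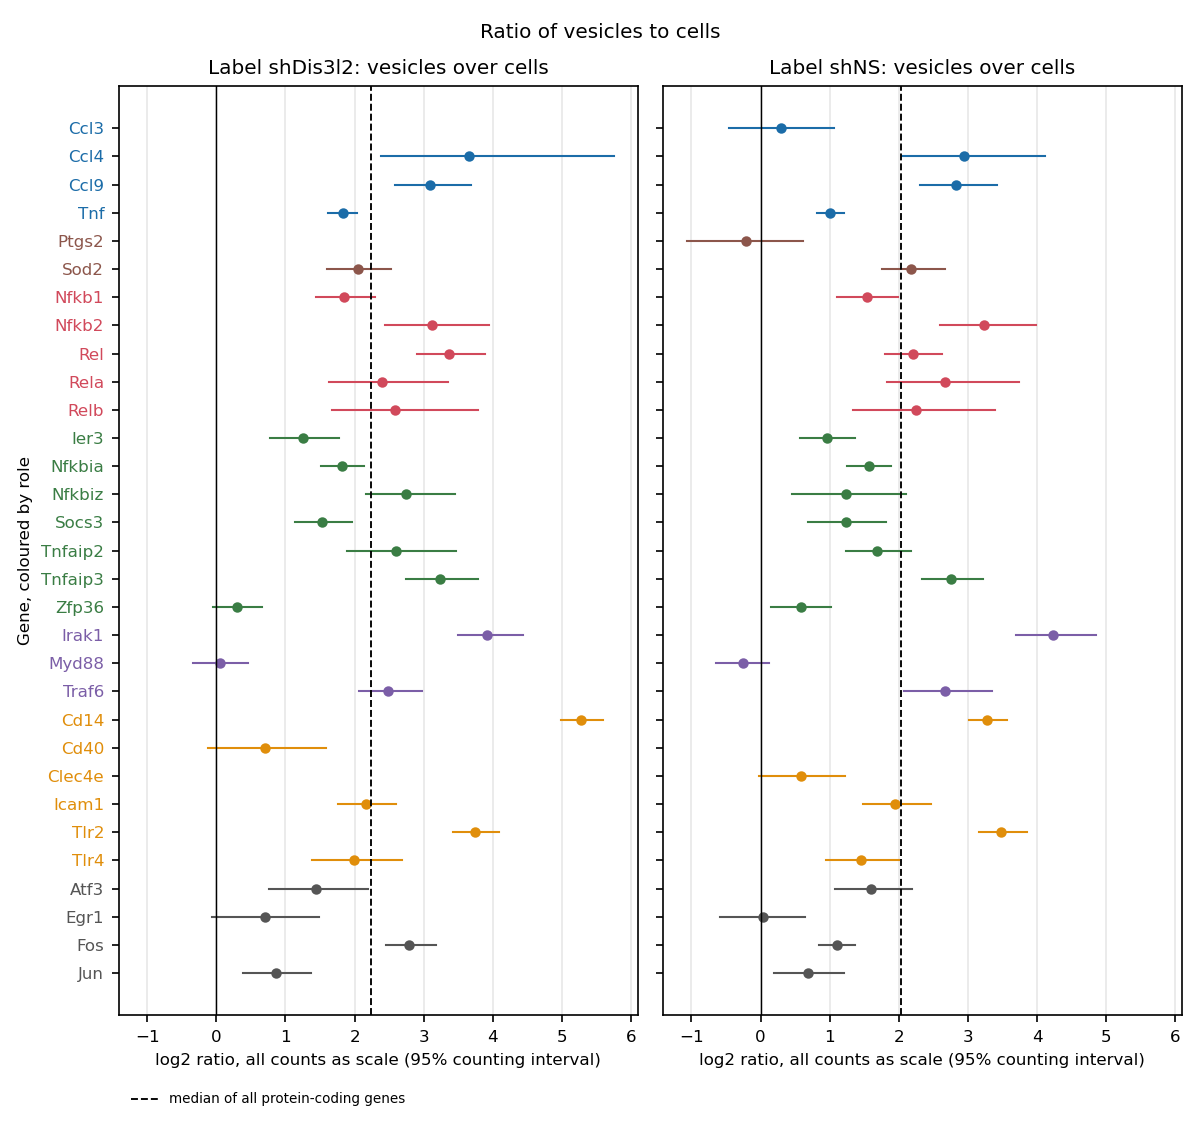
Log2 ratio of vesicles to cells under the label shDis3l2 (left) and shNS (right), on the scale of all counts, with 95% counting intervals; the dashed line is the median of all protein-coding genes (2.23 and 2.03). Cd14 under shDis3l2 (5.27) and Irak1 under shNS (4.23) lie farthest to the right, and Myd88 lies at 0.06 and -0.26.

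On both scales Ccl4, Nfkb2, Tlr2, Irak1 and Cd14 were at least 2-fold higher in vesicles under both labels, and Ccl9, Tnfaip3 and Rel under shDis3l2 alone; whether the labels differ in this was not tested. Irak1 was 15.2-fold higher in vesicles under shDis3l2 (log2 3.92, 3.49 to 4.43) and 18.7-fold under shNS (log2 4.23, 3.70 to 4.85), and its ratios per protein-coding count were 1.95 and 2.28. For Tlr2 the vesicles were 13.3-fold higher under shDis3l2 and 11.2-fold under shNS. Cd14 was 38.6-fold higher in vesicles under shDis3l2 and 9.69-fold under shNS. At the other end, Myd88 had ratios of 0.06 and -0.26, Zfp36 of 0.30 and 0.58, Egr1 of 0.70 and 0.03 and Jun of 0.87 and 0.69 under shDis3l2 and shNS, all below the median of all genes. As gene sums, 4 of the 5 NF-kB subunits lay above that median under each label. Of the 7 measured inhibitors and feedback regulators 3 lay above it under shDis3l2 and 1 under shNS, and of the 4 immediate-early factors 1 and 0 did.

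**Figure D4:**
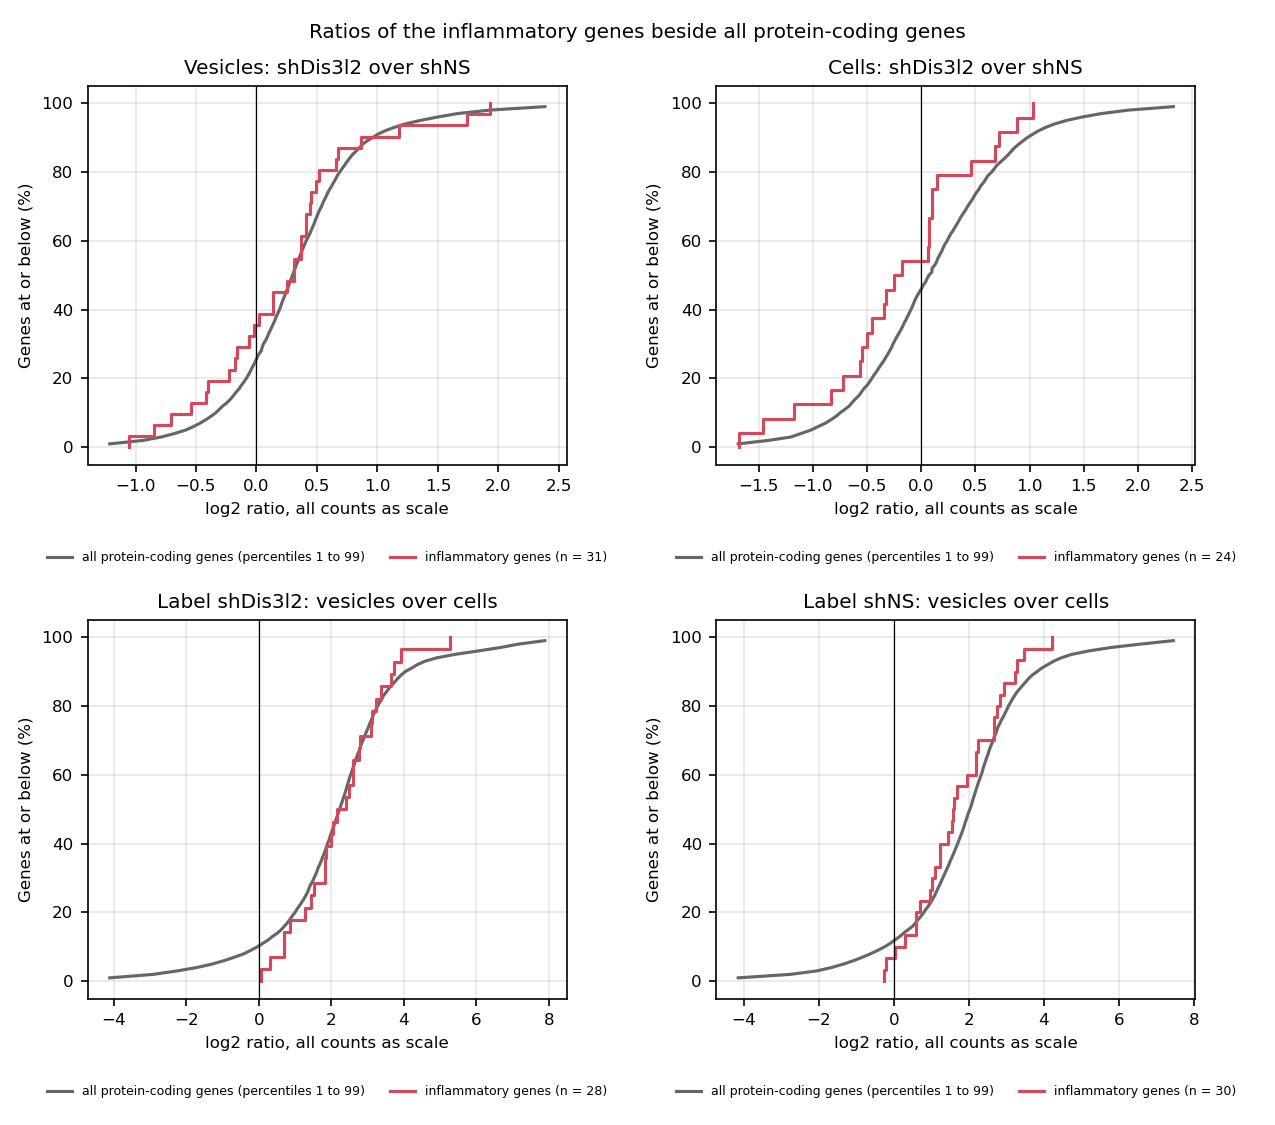
Cumulative share of genes at or below each log2 ratio for the measured inflammatory genes (red steps) and all protein-coding genes (grey, percentiles 1 to 99) in the 4 comparisons, on the scale of all counts. In cells the red steps lie left of the grey line over most of the range (median -0.22 beside 0.07 at the minimum of 50 counts), and in vesicles the medians meet (0.31 beside 0.30).

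An additive model of compartment and label over the 4 libraries, fitted across all features with edgeR's quasi-likelihood test, had 1 residual degree of freedom and takes any interaction as error. It called 7 of 34 tested genes higher in vesicles (Ccl4, Ccl9, Nfkb2, Tnfaip3, Tlr2, Irak1 and Cd14) and 6 lower (Ccl3, Il1rn, Ptgs2, Myd88, Zfp36 and Egr1) at a Benjamini-Hochberg adjusted p of 0.05, where 16.5% of protein-coding genes were higher and 15.2% lower. The fit scales by TMM factors, and the direction of some of the 6 depends on the scale: Zfp36 and Egr1 had ratios above 0 on the scale of all counts under both labels, Myd88 under shDis3l2 and Ccl3 under shNS. The smallest adjusted p among these genes in this edgeR fit, which required 50 counts over the 4 libraries, was 0.00291, for Irak1. The edgeR fit with a minimum of 1 count called 10 of the 42 genes higher, adding Rel, Rela and Traf6 to the 7, where 19% of protein-coding genes were higher. It called 1 lower (Myd88), where 6.92% were, and its smallest adjusted p was 9.67e-08, for Irak1. There Ccl3, Il1rn, Ptgs2, Zfp36 and Egr1 were no longer called, with edgeR adjusted p-values of 0.246, 0.178, 0.165, 0.425 and 0.418. DESeq2's fit of the same model called 3 of the 34 higher (8.82%; Tlr2, Irak1 and Cd14), where 9.93% of protein-coding genes were, and 1 lower (2.94%; Myd88), where 10.1% were. For the label the edgeR fit at 50 counts called 0 of the 34 genes, with 4 at an unadjusted p below 0.05 and a smallest adjusted p of 0.663 for Clec4e. At 1 count edgeR called 0 of the 42, with 4 at an unadjusted p below 0.05 and a smallest adjusted p of 0.483, and DESeq2 called 0 of the 18 to which it gave an adjusted p, with 0 of the 34 at an unadjusted p below 0.05.

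The counts of several genes rest on particular transcripts. Cd14 has a coding transcript, Cd14-201, and a shorter one typed as a retained intron, Cd14-202, which shares 777 of its 868 nt with the first and has 91 nt outside its exons. Cd14-202 was assigned 2983 counts in shDis3l2 and 669 counts in shNS vesicles, and 39.5 counts in shDis3l2 and 32.4 counts in shNS cells. Cd14-201 was assigned 502 counts in shDis3l2 and 406 counts in shNS vesicles, and 54.4 counts in shDis3l2 and 88.1 counts in shNS cells. The label ratio in vesicles was thus 4.60-fold for Cd14-202 and 1.28-fold for Cd14-201. Of the counts of Myd88, 95.6% were on Myd88-203, also typed as a retained intron, which has 549 nt outside the exons of the coding Myd88-201 and lies opposite Acaa1a.

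**Figure D5:**
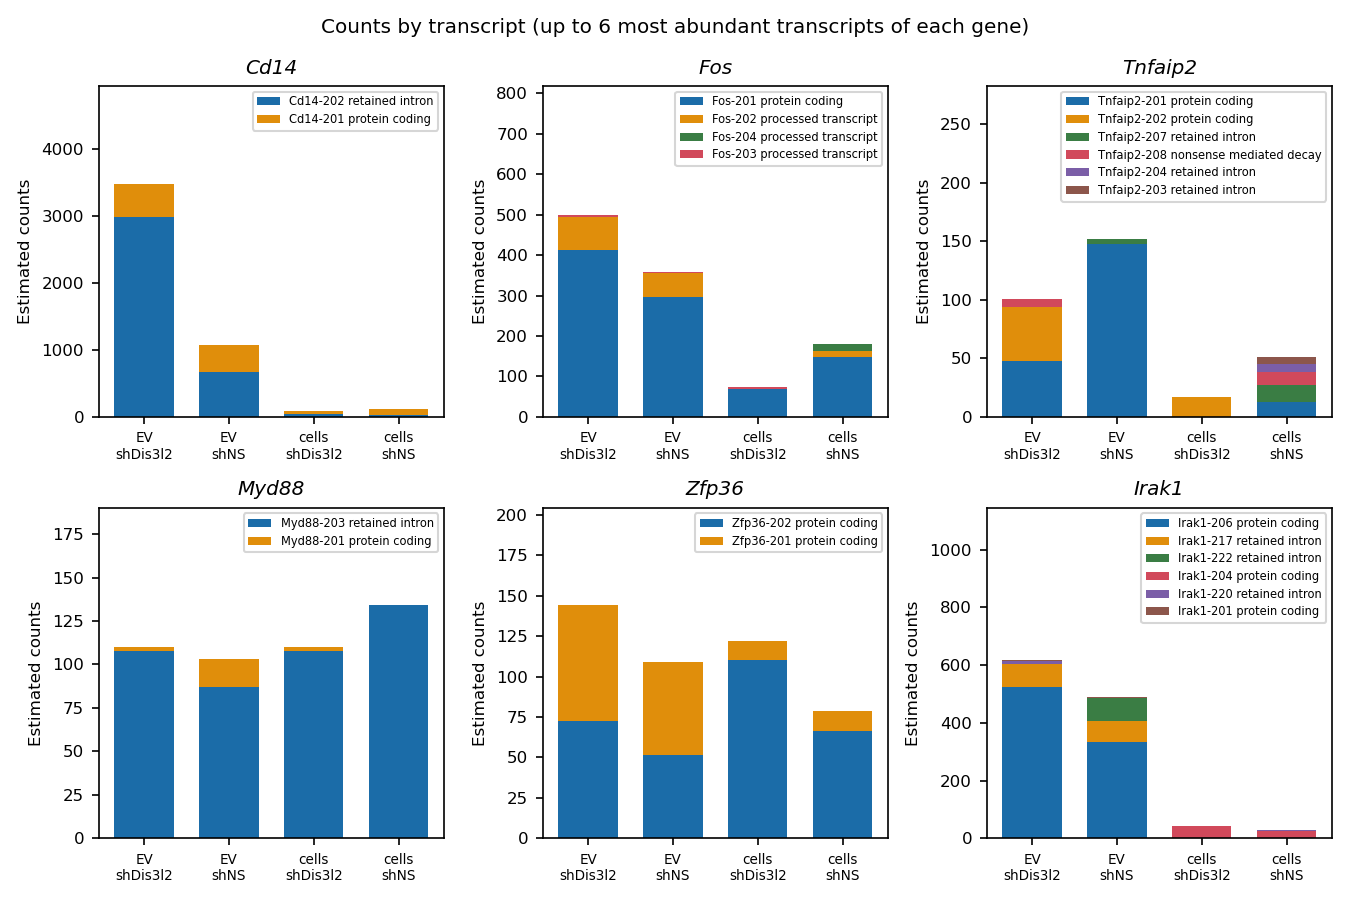
Estimated counts per library for 6 genes, with each bar divided by transcript (up to 6 of the most abundant per gene). Most of the Cd14 bar in shDis3l2 vesicles is Cd14-202 (2983 counts), nearly all of the Myd88 bars is Myd88-203, and Irak1 is assigned mostly to Irak1-206 in vesicles and to Irak1-204 in cells.

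Irak1 counts went mostly to Irak1-206 in vesicles, with 525 counts in shDis3l2 and 334 in shNS, and to Irak1-204 in cells, with 42.4 counts in shDis3l2 and 24.5 in shNS; both are coding transcripts. The first 70 nt of Irak1-206 are identical to Mir718, which had 0 counts in all libraries, and an exon of Irak1 contains Mir5132, with 11 and 0 counts in shDis3l2 and shNS vesicles and 16 and 21 in shDis3l2 and shNS cells. Nfkbiz-204 was assigned 109 counts in shDis3l2 and 12.8 in shNS vesicles, and Nfkbiz-203 55.1 in shDis3l2 and 30.9 in shNS vesicles. Tnfaip2 counts were split differently between Tnfaip2-201 and Tnfaip2-202 from library to library, and those of Tnfaip3 between Tnfaip3-201 and Tnfaip3-202. For both, the ratios given are those of the gene sum. In cells the coding Tnfaip2-201 and Tnfaip2-202 were assigned 0 and 17.3 counts in shDis3l2, and 12.8 and 0 in shNS. The other Tnfaip2 transcripts with counts in shNS cells are not typed protein-coding and had 0 in shDis3l2 cells. Clec4e-201, the coding transcript, was assigned 8.22 counts in shDis3l2 and 3.19 in shNS cells. The retained-intron Clec4e-206 was assigned 2.33 and 18.6, and Clec4e-203 0 and 9.96. Fos, Rel and Tnf rested on 1 transcript with 83.1%, 100% and 100% of their counts. Exact stretches of at least 24 nt shared with an annotated structured RNA occurred in 5 of the 34 genes (14.7%; Il1rn, Ccl9, Irak1, Sod2 and Fos), whose partners had at most 3 counts in a library, and in 26.3% of protein-coding genes at the same minimum. Nfkb2, Tnfaip2, Icam1, Zfp36, Jun, Irak3 and Il1b, as well as Myd88, have an annotated gene on the opposite strand. Whether strand was used in assigning reads is not stated in the labels.

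Of 79 other genes of the pathway that are not among the 42, 56 reached 50 counts in the vesicle pair and 34 in the cell pair. In vesicles 4 were 2-fold higher and 0 lower under shDis3l2, with 9.03% and 1.7% of all protein-coding genes, and in cells 1 was higher and 3 lower, with 9.59% and 5.19%. Per protein-coding count, 0 were higher and 1 lower in vesicles, with 4.66% and 4.78% of all genes, and 1 was higher and 5 lower in cells, with 4.87% and 12.7%. Traf3, an adaptor that restrains the non-canonical pathway, had 1486 counts in shDis3l2 and 587 in shNS vesicles, and 38 and 34 counts in shDis3l2 and shNS cells, a vesicle ratio of 1.39 (1.25 to 1.53) on the log2 scale. Ikbkb, the catalytic IkB kinase, had 1150 and 493 counts in shDis3l2 and shNS vesicles and 81 and 57 counts in shDis3l2 and shNS cells, with a vesicle ratio of 1.27. Nfkbib, which encodes IkBβ, had a vesicle ratio of 1.32 on 37 counts in shDis3l2 and 15 in shNS. The lowest vesicle ratios with an interval below 0 were those of Sqstm1 (-0.74) and Ticam2, an adaptor of TLR4 (-0.54). In cells Nfkbid, which encodes a nuclear IkB protein, had 52 counts in shDis3l2 against 21 in shNS (log2 ratio 1.39), and Sqstm1, the autophagy receptor p62, had 21 against 59 (-1.37). Ikbkg, the regulatory subunit of the IkB kinase, had 47 counts in shDis3l2 against 29 in shNS cells (0.79), and Traf2, an adaptor of TNF receptors, had 40 against 25 (0.77). Il23a, a subunit of interleukin-23, had 41 against 108 counts in cells (-1.29), and Fosl2, a relative of Fos, had 44 against 112 (-1.24).

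Between compartments, 50 of 53 of these other genes were 2-fold higher in vesicles under shDis3l2 and 47 of 54 under shNS on the scale of all counts, where 80% and 76.8% of all genes were. Per protein-coding count 14 were higher and 3 lower under shDis3l2, with 27.1% and 19.6% of all genes, and 10 higher and 6 lower under shNS, with 22.5% and 22.4%. Mapkapk2, a kinase that stabilises AU-rich mRNAs through tristetraprolin, had 1751 and 1612 counts in shDis3l2 and shNS vesicles, against 152 and 117 counts in shDis3l2 and shNS cells. Il12a, the p35 subunit of interleukin-12, had 994 and 914 counts in shDis3l2 and shNS vesicles and 18 and 6 counts in shDis3l2 and shNS cells. Tab1, which activates the kinase TAK1, had 136 and 71 counts in shDis3l2 and shNS vesicles and 7 and 6 counts in shDis3l2 and shNS cells. Il23a ran the other way, with 8 and 5 counts in shDis3l2 and shNS vesicles against 41 and 108 in shDis3l2 and shNS cells. Tab2, an adaptor of the kinase TAK1, had 556 and 385 counts in shDis3l2 and shNS vesicles and 498 and 549 in shDis3l2 and shNS cells, and its ratio under shNS was -0.39 (-0.59 to -0.20). Junb, a partner of Fos in AP-1, had 1316 and 1009 counts in shDis3l2 and shNS vesicles and 117 and 237 counts in shDis3l2 and shNS cells, which is the direction of Fos in both compartments.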

How the data were processed

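The authors deposited estimated counts per transcript for 4 small-RNA libraries of 50 nt reads. The submitters' processing notes name cutadapt, Salmon and Novoalign, and the builds GRCm38 and mm10, without roles or versions; collapsing by molecular tags is not stated. Of the 141239 features, 139791 were named from GENCODE M21, and 1201 Ensembl transcripts without a name held at most 0.134% of a library. Estimated counts were summed per gene and rounded to whole numbers.

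Ratios are log2 of counts per 1000000 of all counts (CPM) with a pseudocount of 0.5, for genes with at least 50 counts over the pair, with exact conditional (Clopper-Pearson) 95% intervals that cover counting error only. A gene was called when its ratio was at least 2-fold and the interval excluded equality. A count of 0 was read against a floor of 3 counts. With 1 library per group no p-value was computed for a single comparison. The interval of the difference between label ratios is a normal approximation on log counts. Additive models of compartment and label were fitted with edgeR 4.0.16 (quasi-likelihood) and DESeq2 1.42.0 in R 4.3.3, with p-values adjusted over all features. Ratios and fits were tested on simulated data. Python 3.11.15, pandas 2.3.3 and scipy 1.17.1 were used. Promoters come from RefSeq (GRCm38.p6).

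The genes and lists were chosen with earlier results of these data known. Each of the 42 genes that reached 50 counts in a pair is named, the rest by range; of the other pathway genes, the 5 with the most counts and up to 3 with the largest ratios in each direction per comparison whose interval excluded equality. Alternatives covered the scale, the count minimum, the pseudocount, the transcripts counted, thinning and the fitting tool.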

Additional observations from a re-analysis of the deposited data

Results flagged for a closer look

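Fos and Tnf had label ratios of opposite direction in the 2 compartments, with a counting interval that excluded equality in each. For Fos the log2 ratio in vesicles exceeded that in cells by 1.69, with the shDis3l2 library higher in vesicles (499 counts, against 359 in shNS) and lower in cells (75 counts, against 181 in shNS). For Tnf the difference was 0.82, with 824 counts in shDis3l2 and 604 in shNS vesicles, and 242 in shDis3l2 and 325 in shNS cells. The difference was not tested, since each group has 1 library. Per protein-coding count the vesicle ratio was 0.13 for Fos and 0.10 for Tnf. Opposite directions of this kind were found in 8.33% of the 24 measured genes and in 7.93% of all protein-coding genes.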

How the results depend on the processing

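The scale decided most counts of genes at least 2-fold apart. As reported, 3 genes were higher and 1 lower under shDis3l2 in vesicles, 1 higher and 3 lower in cells, 23 higher and 0 lower in vesicles over cells under shDis3l2, and 22 higher and 0 lower under shNS. Per protein-coding count, 3 were lower in vesicles, 0 higher and 5 lower in cells, 8 higher and 5 lower in vesicles over cells under shDis3l2, and 5 and 7 under shNS. Without the 10 most abundant coding genes in that scale, 4 were lower in vesicles, 0 higher in cells, 5 higher and 6 lower over cells under shDis3l2, and 4 and 9 under shNS. With edgeR's TMM factors these were 2, 0, 14 and 1, and 12 and 2; with DESeq2's size factors they were 2, 0, 14 and 1, and 12 and 3. Scaled to all transcript types of protein-coding genes, an alternative chosen after seeing the data, 3 were lower in vesicles, 0 higher and 5 lower in cells, 12 higher and 2 lower over cells under shDis3l2, and 9 and 4 under shNS.

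A count minimum of 20 gave 2 genes lower in vesicles. A minimum of 200, which tests fewer genes, gave 0 lower in vesicles, 0 higher and 1 lower in cells, and 14 higher over cells under each label, and the median under shDis3l2 then lay -0.47 from that of all genes, where it was 0.06 as reported. No minimum gave 2 lower in vesicles and 1 lower over cells under shNS, and a median 0.16 from that of all genes under shNS, where it was -0.45. A pseudocount of 5 gave 0 lower in vesicles and 0 higher in cells. Counting transcripts typed protein-coding gave 2 higher and 2 lower in cells and 0 lower in vesicles, and the genes called changed. In cells Traf6 lost its call, with a log2 ratio of 0.39 on its coding transcript. The coding Socs3-201 and Sod2-201 had 1.11 and 1.28 there. Of the genes lower in cells as reported, Fos alone kept its call (-1.03), and Tnfaip3 was newly called lower. Tnfaip2 and Clec4e fell below the minimum of 50 counts on coding transcripts. In vesicles 3 genes were higher, as before, but not the same 3. Cd14 lost its call, with 0.35 on its coding transcript, and Nfkb1 gained one on its coding Nfkb1-206 and Nfkb1-203. Without each gene's most abundant transcript, 1 was higher and 2 lower in vesicles, 0 higher and 1 lower in cells, 8 higher over cells under shDis3l2, and 8 higher and 1 lower under shNS. Thinning to the smallest protein-coding total gave 0 lower in vesicles. The additive fit called 13 of 34 genes for compartment with edgeR at 50 counts, 11 of 42 at 1 count and 4 of 34 with DESeq2. The median of the genes minus that of all genes ranged from -0.14 to 0.09 for the label in vesicles, from -0.34 to -0.03 for the label in cells, from -0.47 to 0.33 for vesicles over cells under shDis3l2, and from -0.54 to 0.16 under shNS; a minimum of 20 counts gave -0.07 for the label in cells, where it was -0.29 as reported. Beyond what each alternative changes by construction, the cause was not tested. No pairing by replicate was possible because each group has 1 library and the labels give no replicate numbers. The additive fits use compartment and label as their terms, so they compare labels within compartments and compartments within labels. Since each group has 1 library, no library could be left out.

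Of 1185 single-gene values under all alternatives, 776 stayed within the counting interval of the value as reported, 364 moved outside it and 45 were those of genes called higher in vesicles than in cells as reported whose log2 ratio of vesicles over cells then had the opposite sign. Per protein-coding count these were Ier3 (-0.71), Nfkbia (-0.16), Tnf (-0.14), Atf3 (-0.53), Nfkb1 (-0.13) and Socs3 (-0.44) under shDis3l2, and Nfkbia (-0.38), Fos (-0.84), Tnfaip2 (-0.26), Tnf (-0.93), Atf3 (-0.34), Nfkb1 (-0.40), Nfkbiz (-0.71), Tlr4 (-0.49) and Socs3 (-0.71) under shNS. Without the 10 most abundant coding genes in that scale these were Ier3 (-1.09), Sod2 (-0.30), Nfkbia (-0.53), Tnf (-0.52), Atf3 (-0.91), Nfkb1 (-0.50), Icam1 (-0.19), Tlr4 (-0.36) and Socs3 (-0.82) under shDis3l2, and Nfkbia (-0.52), Fos (-0.98), Tnfaip2 (-0.40), Tnf (-1.07), Atf3 (-0.49), Nfkb1 (-0.55), Nfkbiz (-0.85), Icam1 (-0.14), Tlr4 (-0.64) and Socs3 (-0.86) under shNS. With DESeq2's size factors these were Fos (-0.01) and Tnf (-0.10) under shNS. Scaled to all transcript types of protein-coding genes these were Ier3 (-0.28), Atf3 (-0.10) and Socs3 (-0.01) under shDis3l2, and Fos (-0.39), Tnf (-0.48), Nfkbiz (-0.26), Tlr4 (-0.04) and Socs3 (-0.26) under shNS. Without each gene's most abundant transcript this was Icam1 (-0.75) under shDis3l2.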
